A study of Mus musculus with 48 samples.

Results

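The vehicle livers were 12 of the 48 mouse liver libraries of a study of gapmer antisense oligonucleotides against Scarb1, the gene of the HDL receptor SR-BI, and they were chosen by their labels alone. These mice received PBS (phosphate-buffered saline) and no oligonucleotide, and 4 libraries each were made from total RNA of the liver at 24 h, 72 h and 168 h. The study's own text places these times at day 1, 3 and 7 after dosing began. The sources used here do not give genotype, strain, sex, age, number of doses, hour of collection or sequencing run. The labels do not say that the 4 replicates of a time came from separate animals, so the p-values measure only the spread between these libraries, which may be technical. Comparing the 3 times with one another shows which liver transcripts differed between control groups that had received no oligonucleotide, and how far replicates of 1 time lay apart.

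Hepatocytes make most of the plasma proteins and carry out bile acid, lipid, sugar and drug metabolism. They also hold a circadian clock: the factors Clock and Arntl switch on genes through the E-box sequence CACGTG, among them the Per and Cry genes, whose proteins shut the loop down, and Nr1d1 and Nr1d2, whose proteins repress Arntl. The factors Dbp, Tef and Hlf pass the rhythm on to genes of metabolism through D-box sequences, and the amounts of many of these transcripts rise and fall within a day in mouse liver. Fasting and feeding move a further set, including genes of fat burning, fat synthesis and chaperones of the endoplasmic reticulum (ER).

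Transcripts were read with the Ion AmpliSeq Transcriptome Mouse kit, in which PCR copies 1 chosen stretch of every gene, so that counts speak for that stretch only. Library totals ranged from 8239431 to 11472905 counts with a median of 9403237.5, and between 13479 and 14544 of the 23930 listed genes had at least 1 count in a library. Levels are given as CPM, the counts scaled to a common library size with TMM factors. A set of 10969 genes passed the filter on low counts (edgeR filterByExpr), holding 99.881% to 99.908% of the counts of each library. Differences are log2 fold changes ± SE with 4 libraries per group. A gene is called where the quasi-likelihood test of edgeR gave a p under 0.05 after Benjamini-Hochberg adjustment across every gene that passed the filter.

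3 of the 12 libraries stood apart from the rest. Replicate 3 at 168 h had 458 genes at least 2-fold from the median of the other 11 libraries, counting genes that averaged 10 CPM or more, and 407 of these were lower. Replicate 1 at 168 h had 176 such genes, 148 of them lower, and replicate 4 at 24 h had 110, 95 of them lower, while the other 9 libraries had 5 to 30. In replicate 3 at 168 h the deviations of genes followed the GC content of their transcripts (Spearman rho 0.656 across genes, which are not independent) and in replicate 1 at 168 h their transcript length (rho -0.457). Libraries that did not stand apart also followed GC content, in the other direction: rho was -0.411 in replicate 2 and -0.273 in replicate 1 at 24 h and -0.39 in replicate 4 at 72 h. Genes lower in replicate 3 at 168 h had a median GC content of 43.0% against 49.5% for all genes tested. Replicate 4 at 24 h and replicate 3 at 168 h shared 70 of these lower genes. After these libraries were seen, 2 gene sets were picked by name: histone genes and small RNAs (small nucleolar and Cajal body RNAs, Rmrp and Rpph1). Both sets were higher in the 2 libraries at 168 h: replicate 3 had 9 of 9 small RNAs and 7 of 7 histone genes above the median of the others, and replicate 1 had 7 of 9 and 7 of 7. Libraries that did not stand apart shared part of this. Small RNAs were higher for 9 of 9 in replicate 1 at 72 h (median log2 deviation 0.50) and for 7 of 9 in replicate 4 at 168 h. The latter also had 7 of 7 histone genes higher, with a median log2 deviation of 0.33 against 0.72 in replicate 3 and 1.41 in replicate 1. What sets these libraries apart was not tested. Results at 168 h are also given without replicates 1 and 3 of that time, a choice made after seeing the data.

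**Figure D1:**
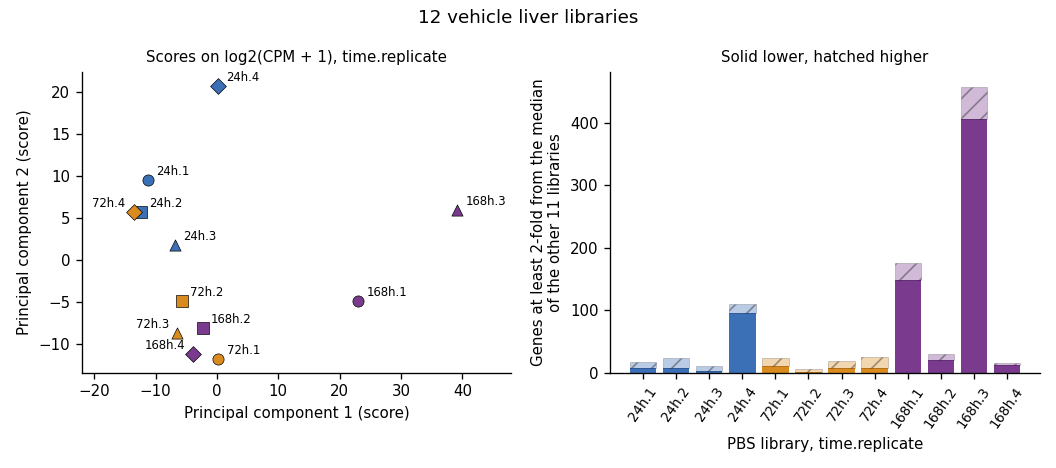
Left, scores of the 12 PBS libraries on the first principal components of log2(CPM + 1), which carried 42.2% and 17.03% of the variance, coloured by time and marked by replicate. Right, the number of genes at least 2-fold from the median of the other 11 libraries, lower genes solid and higher genes hatched. Replicates 1 and 3 at 168 h and replicate 4 at 24 h stand apart, and replicate 4 at 72 h sits among the 24 h libraries.

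The baseline profile was that of hepatocytes. Alb, the gene of serum albumin, took the most reads at 35922 CPM on average (range 30852 to 47131), or 3.58% of the counts. Mup3, a major urinary protein, followed at 13242 CPM, with C3 of complement at 12648 CPM, the selenium carrier Sepp1 at 12646 CPM and the plasma protein Ahsg at 12263 CPM. The 20 genes with the most reads also held the apolipoproteins Apoc1, Apoc3 and Apob, the fibrinogen chains Fga and Fgb, transthyretin (Ttr), the ethanol-inducible Cyp2e1, the fatty acid binder Fabp1 and the nuclear RNA Malat1, and together they took 18.678% to 21.035% of the counts of a library. Since each gene is read from its own amplified fragment, this order is one of reads, and amplification may differ between genes. None of these 20 genes was called in the test of any difference among the 3 times, with adjusted p from 0.211 for Malat1 upwards, against 0.903% of all genes called. Malat1 was also the most variable of them, at 2171 to 8796 CPM. Mup genes are near-identical copies, and how their reads were assigned was not checked.

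Summed hepatocyte markers (9 of the 12 listed were in the table, led by Alb, Ahsg and Cyp2e1) made up 74393 to 97865 CPM of each library. Sinusoidal endothelial markers summed to 449 to 524 CPM over 12 genes, Kupffer cell markers to 348 to 414 CPM over 12 and stellate and fibroblast markers to 618 to 729 CPM over 14, and no member of these 3 lists was called in any comparison. Neutrophil markers summed to 4.15 to 6.52 CPM over 10 genes, T cell markers to 2.83 to 5.66 over 8 and skeletal muscle markers to 1.46 to 3.17 over 8. The pancreatic acinar sum of 65.2 to 91.4 CPM came from Cela1 alone, at a mean of 79.6 CPM, while the other acinar genes, the proteases and lipases that define these cells, had means of at most 0.054 CPM and 3 of the 12 were at 0 in every library. Of the erythroid list, Alas2 had a mean of 310.2 CPM. The cholangiocyte list is counted with the 168 h comparison. In these bulk samples fewer cells of a type and less RNA per cell cannot be told apart.

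Genes known to be higher in male than in female mouse liver were abundant at every time. Hsd3b5, a steroid dehydrogenase, had 329 to 697 CPM at 24 h, 558 to 678 at 72 h and 225 to 668 at 168 h. Cyp4a12a, a fatty acid hydroxylase, lay between 539 and 742 CPM in the 12 libraries. Genes of the same list known to be higher in females were mixed. Sult2a1 had counts in 1 library only, at 0.103 CPM, and A1bg did not exceed 0.472 CPM. Cyp2b9 was detected in all 12 libraries at 11.9 to 54.2 CPM and Cyp2a4 at 3.26 to 18.6 CPM. The labels do not give the sex of the animals. Of the 21 tested genes of the growth hormone and sex-dependent list, none was called between 72 h and 24 h or between 168 h and 24 h. From 72 h to 168 h 1 was called, Elovl3, which rose.

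A few abundant genes hardly varied. Their steadiness is the SD between replicates of a time, pooled over the 3 times on the log2(CPM + 1) scale, for genes averaging 100 CPM or more. Ambp, the precursor of the plasma proteins alpha-1-microglobulin and bikunin, had an SD of 0.053, with 2614 to 2966 CPM in the 12 libraries, and Etfa, of the electron transfer flavoprotein, one of 0.060 (959.8 to 1109 CPM). The 10 steadiest also held Nnt, Esd, Hoga1, Pipox, Idh3b and Paics, and none of the 10 was called among the 3 times. Genes often used as references, picked after the data were seen, differed among themselves. Actb had an SD of 0.20, at percentile 42.6 of the 7126 genes averaging 10 CPM or more, and the others named here had larger ones: Hprt 0.25 (percentile 66.0), Tbp 0.29 (percentile 80.0) and the transferrin receptor Tfrc 0.43 (percentile 94.6). Over the 7126 genes the median SD was 0.21, at 0.15 in the 24 h group, 0.15 in the 72 h group and 0.26 in the 168 h group. Without replicates 1 and 3 at 168 h the pooled median was 0.16.

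Between 24 h and 72 h 8 genes were called, 0.0729% of those tested, and clock genes led them. Dbp, Rgs16, Angptl4, Lpin2, Tcp11l2 and Nr1d2 rose (0.0547% of the genes tested), and Ppard and Pitx3 fell (0.0182%). In all 8 the 4 libraries at 72 h lay beyond the 4 at 24 h, which held for 5.1% of all genes tested. At an unadjusted p under 0.05 there were 684 genes, 6.24%. The count moved with single libraries: it was 3 without replicate 1 at 24 h, 4 without replicate 2 and 14 without replicate 3 of that time, 4 without replicate 1, 5 without replicate 3 and 54 without replicate 4 at 72 h, and 21 without replicate 3 at 168 h.

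Dbp (ENSMUSG00000059824.12, chr7:45705088-45710203 in GRCm38), a clock output factor of the PAR bZIP family, had 0.167, 1.36, 2.07 and 0.711 CPM at 24 h, 11.6, 7.10, 27.7 and 15.2 CPM at 72 h, and 1.18, 1.06, 0.629 and 0.472 CPM at 168 h. Every 72 h library exceeded all 8 others. Its log2 fold change was 3.85 ± 0.51 (SE, adjusted p = 0.00701) from 24 h to 72 h and -4.16 ± 0.53 (SE, adjusted p = 0.0062) from 72 h to 168 h. Rgs16 (chr1:153740349-153745468), a regulator of G protein signalling whose liver transcript is known to be rhythmic, had 4.85, 4.09, 7.76 and 2.02 CPM at 24 h, 60.6, 16.9, 70.0 and 23.5 CPM at 72 h, and 3.64, 6.08, 3.27 and 7.20 CPM at 168 h. The 72 h libraries were again the 4 highest, with a 4-fold range among themselves. The differences were 3.17 ± 0.47 (SE, adjusted p = 0.0175) and then -3.07 ± 0.47 (SE, adjusted p = 0.0376), and the first call was lost in 5 of the 12 fits that left out 1 library (adjusted p up to 0.122, without 24 h replicate 1), the second in 8 (up to 0.222, without 168 h replicate 3). For Dbp none of these fits lost the first call, and 1 lost the second, at an adjusted p of 0.054 without 168 h replicate 2. Without replicates 1 and 3 at 168 h together both Rgs16 calls and the second Dbp call were lost. The first Dbp call was lost with only the 8 libraries compared, and where replicate 4 at 24 h was left out along with those 2 replicates.

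The clock repressors Nr1d1 and Nr1d2 moved in the same way. Nr1d2 had 37.9, 50.3, 46.2 and 52.9 CPM at 24 h, 82.6, 84.8, 99.5 and 93.2 CPM at 72 h, and 37.0, 50.7, 34.6 and 51.5 CPM at 168 h, and its differences were 0.95 ± 0.15 (SE, adjusted p = 0.0135) from 24 h to 72 h and -1.05 ± 0.15 (SE, adjusted p = 0.0062) from 72 h to 168 h. The first of these calls was lost in 3 of the 12 fits without 1 library (adjusted p up to 0.138, without 24 h replicate 1) and the second in 1 (adjusted p 0.062, without 72 h replicate 3). Both were lost with all 48 libraries, the first also with library totals alone and the second also without replicates 1 and 3 at 168 h together. Nr1d1 had 60.3, 90.1, 109 and 73.9 CPM at 24 h, 172, 166, 192 and 147 CPM at 72 h, and 79.6, 42.8, 75.9 and 51.9 CPM at 168 h, so that no library at 24 h or 168 h reached the lowest at 72 h. It passed the test from 72 h to 168 h, at -1.44 ± 0.20 (SE, adjusted p = 0.0062), in every fit run, and its difference from 24 h to 72 h was 1.02 ± 0.20 (SE, adjusted p = 0.0612). Tef, like Dbp a PAR bZIP factor, had 3.77 to 5.34 CPM at 24 h, 8.13 to 11.8 at 72 h and 4.49 to 6.04 at 168 h. It was called in the test of any difference (adjusted p = 0.022) and not from 24 h to 72 h, at 1.07 ± 0.20 (SE, adjusted p = 0.0507).

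Members of the other arm of the clock did not pass the test. Npas2, a partner of Arntl, had 14.3 to 34.4 CPM at 24 h, 7.44 to 21.2 at 72 h and 36.0 to 43.6 at 168 h, with adjusted p = 0.0763 for any difference. Arntl itself had 25.4 to 35.6, 17.6 to 27.1 and 27.9 to 35.5 CPM, and Clock 91.6 to 114, 77.4 to 90.6 and 61.3 to 101 CPM. Cry1, a repressor of the loop, had 6.76 to 10.5, 2.95 to 5.02 and 4.49 to 8.81 CPM. Per1 and Per2 were at most 4.35 and 15.1 CPM. Per3 did not pass the filter on low counts, and its levels were 0.167, 0.314, 0.311 and 0.119 CPM at 24 h and 1.02, 0.515, 2.13 and 1.77 at 72 h. Of the 14 tested core clock genes 1 rose from 24 h to 72 h, with a median log2 change of -0.15 against 0.01 for all genes tested. Of the 16 clock output genes 2 rose, with a median of 0.06. The shape of the curve between the 3 times is not known from these samples.

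**Figure D2:**
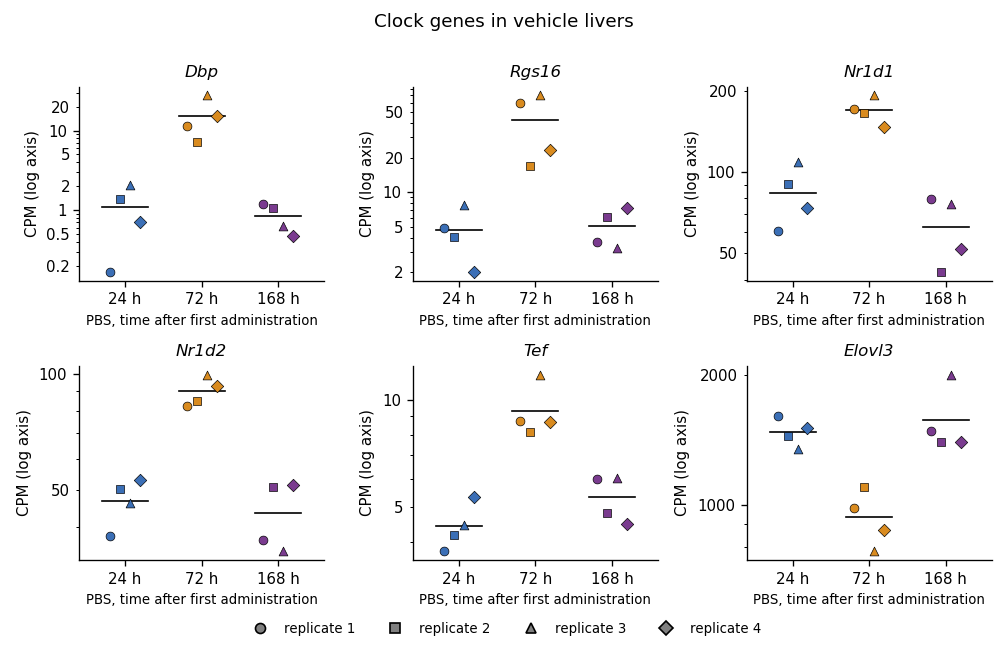
CPM on a log axis of 6 genes of the clock and its output in the 12 PBS libraries by time, 1 point per library with the replicate as its shape and the group mean as a line. For Dbp, Rgs16, Nr1d1, Nr1d2 and Tef the 4 libraries at 72 h lie above the 8 others, and for Elovl3 they lie below them.

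Promoters of these genes were searched for the E-box CACGTG and the D-box forms TTATGTAA and TTATGCAA on both strands, in windows from 250 bases before to 50 bases after the start (RefSeq, GRCm38.p6). CACGTG is its own reverse complement, and no match overlapped another. Of the 30 tested genes of the core clock and clock output lists 23 had a promoter in the table, and in 4 of them (Tef, Tspan4, Cry1 and Per1) at least 1 promoter held a motif. Of 39 promoters listed for genes of these lists, tested or not, 8 held one, 20.5%, against 8.74% of all 32851 promoters of this length. Among all promoters CACGTG was in 7.15%, TTATGTAA in 0.938% and TTATGCAA in 0.743%. The 8 include promoters of Bhlhe41, Ciart and Per3, which did not pass the filter on low counts, and Tef counts more than once. The 20.5% is therefore not the share for the tested genes. The windows of Dbp, Rgs16, Nr1d1 and Nr1d2 held none of these letters. A match is a description of the sequence and not a measured binding site. The 3 printed are those with a match whose gene had the smallest p for any difference, given for the 250 bases before the start, 5′ to 3′ on the strand of the gene, with the motif in capitals. Tef lies on the plus strand (chr15:81802423-81802672, first base of the motif at -127 from the start). Tspan4, which encodes a tetraspanin, is on the plus strand (chr7:141476130-141476379, motif at -51), and Cry1 on the minus strand (chr10:85185055-85185304, motif at -60).
Tef: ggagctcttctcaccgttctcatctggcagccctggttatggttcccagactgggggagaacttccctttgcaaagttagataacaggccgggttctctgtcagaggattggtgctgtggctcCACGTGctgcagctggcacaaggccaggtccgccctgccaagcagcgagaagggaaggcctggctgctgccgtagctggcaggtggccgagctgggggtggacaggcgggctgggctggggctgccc
Tspan4: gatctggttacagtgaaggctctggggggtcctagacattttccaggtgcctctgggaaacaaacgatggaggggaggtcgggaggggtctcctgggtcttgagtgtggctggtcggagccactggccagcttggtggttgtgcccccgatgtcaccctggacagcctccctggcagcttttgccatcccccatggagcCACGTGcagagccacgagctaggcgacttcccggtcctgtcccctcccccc
Cry1: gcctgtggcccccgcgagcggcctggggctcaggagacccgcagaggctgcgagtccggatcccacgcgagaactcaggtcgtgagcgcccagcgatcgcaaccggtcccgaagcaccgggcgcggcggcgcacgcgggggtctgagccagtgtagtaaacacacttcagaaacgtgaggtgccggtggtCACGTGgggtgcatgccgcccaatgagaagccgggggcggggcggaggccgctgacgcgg
Of these genes Tef had an adjusted p of 0.022 for any difference, Tspan4 one of 0.0652 and Cry1 one of 0.115. Tspan4 had 35.7, 47.4, 39.5 and 38.8 CPM at 24 h, 46.0, 38.1, 40.1 and 47.5 CPM at 72 h, and 74.3, 58.8, 70.4 and 47.8 CPM at 168 h, and its difference from 24 h to 168 h was 0.64 ± 0.15 (SE, adjusted p = 0.0363), a call lost in 8 of the 12 fits that left out 1 library (adjusted p up to 0.142, without 24 h replicate 1). That call was also lost without replicates 1 and 3 at 168 h together.

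Outside the clock lists, Angptl4 (chr17:33773750-33781830), a secreted inhibitor of lipoprotein lipase that fasting raises, had 23.8, 32.5, 40.4 and 31.8 CPM at 24 h, 87.1, 85.9, 102 and 72.7 CPM at 72 h, and 60.9, 95.2, 63.2 and 108 CPM at 168 h. All 8 later libraries exceeded the 4 at 24 h. Its differences from 24 h were 1.44 ± 0.19 (SE, adjusted p = 0.00655) at 72 h and 1.35 ± 0.19 (SE, adjusted p = 0.00267) at 168 h, 2 comparisons that share the 24 h libraries, and both calls held in every fit run. Lpin2, a phosphatidate phosphatase, had 34.5 to 50.4 CPM at 24 h and 71.2 to 93.1 CPM at 72 h (1.01 ± 0.17 SE, adjusted p = 0.0288), and 43.1, 70.0, 42.3 and 66.6 CPM at 168 h, where replicates 2 and 4 were above the 24 h range and the libraries that stood apart were within it. Tcp11l2 had 9.96 to 18.0, 25.5 to 33.1 and 28.6 to 39.8 CPM and was called at 72 h (0.99 ± 0.17 SE, adjusted p = 0.0297) and at 168 h (1.26 ± 0.17 SE, adjusted p = 0.00218). The 72 h calls of Lpin2 and Tcp11l2 were each lost in 5 of the 12 fits without 1 library, with adjusted p up to 0.214 (without 24 h replicate 1) and 0.192 (without 72 h replicate 3).

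Ppard, a nuclear receptor for fatty acids, fell: it had 68.5, 44.9, 55.9 and 34.4 CPM at 24 h, 19.6, 18.6, 11.8 and 13.1 CPM at 72 h, and 22.9, 27.9, 38.8 and 22.6 CPM at 168 h. The difference at 72 h was -1.69 ± 0.23 (SE, adjusted p = 0.00655) and was called in every fit run. At 168 h it was -0.87 ± 0.22 (SE, adjusted p = 0.0552). Pitx3, a homeobox factor best known from lens and dopaminergic neurons, had 32.9, 30.6, 23.6 and 44.7 CPM at 24 h, 9.97, 15.1, 6.28 and 10.8 CPM at 72 h, and 13.0, 17.2, 22.4 and 21.7 CPM at 168 h, with -1.64 ± 0.25 (SE, adjusted p = 0.0112) at 72 h. That call was lost without replicate 1 at 24 h and without replicate 1 at 72 h (adjusted p up to 0.0701).

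Members of the fatty acid oxidation and fasting list other than Angptl4 were mostly higher at 72 h without being called. 17 of its 19 tested genes had a positive log2 change, with a median of 0.32 against 0.01 for all genes. Cpt1a, which brings fatty acids into mitochondria, had 254 to 311 CPM at 24 h and 368 to 456 at 72 h. The fasting receptor Ppara had 169 to 218 and 230.3 to 433 CPM. For both genes the groups did not overlap, and their adjusted p were 0.146 and 0.393. Without replicates 1 and 3 at 168 h, libraries that do not enter this difference but do enter the estimate of spread, 3 members of the list rose. In the xenobiotic metabolism list 18 of 19 tested genes had a positive change at 72 h, with a median of 0.27, and none was called.

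Replicate 4 at 72 h set itself apart from the other 72 h libraries in several genes, among them Alas1 and Cyp7a1 of the clock output list. It had 428 CPM of Alas1, the rate-limiting enzyme of heme synthesis, where the others had 29.6, 34.2 and 30.8 CPM and the 24 h libraries 134 to 249. Cyp7a1, the rate-limiting enzyme of bile acid synthesis, was at 49.2 CPM there and at 8.04, 13.0 and 9.20 CPM in the others. The chaperones Hspa5 and Creld2 and the lipogenic Thrsp were likewise at or above 24 h levels (2152, 203 and 232 CPM). Dbp and Nr1d1 of the clock, at 15.2 and 147 CPM, were above all 24 h libraries there. Npas2 was at 7.44 CPM there, against 13.1 to 21.2 CPM in the other 72 h libraries, and Arntl at 17.6 against 24.1 to 27.1 CPM. The correlation of replicate 4 at 72 h across genes was 0.975 to 0.989 with the 24 h libraries and 0.975 to 0.982 with its own group. Its label was kept.

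Without that library 54 genes were called from 24 h to 72 h, 26 higher and 28 lower, and they included all 8 called with it. Among them Alas1 fell by 2.79 on the log2 scale and Cyp7a1 by 1.97 (adjusted p = 0.00583 and 0.0113), where the values with all 12 libraries were -0.72 ± 0.88 (SE, adjusted p = 0.984) and -0.97 ± 0.49 (SE, adjusted p = 0.851). Hspa5 was at -0.80 (adjusted p = 0.0205), Creld2 at -1.16 (adjusted p = 0.0205) and Manf at -0.90 (adjusted p = 0.0365). Of the 18 ER chaperone and stress genes 5 fell and 1, Trib3, rose without it, and none was called with it. Trib3, a stress-induced pseudokinase, was named after its values were seen. The clock genes Tef and Nr1d1 were called as well, at 1.09 (adjusted p = 0.0348) and 1.07 (adjusted p = 0.0348). Replicate 4 at 72 h was singled out after the data were seen, in part by its levels of Alas1, Cyp7a1, Creld2 and Thrsp. The p-values of such genes in the fit without it therefore cannot serve as support for a change.

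From 24 h to 168 h 211 genes were called, 1.92% of those tested: 77 rose (0.702%) and 134 fell (1.22%). In 206 of them the groups did not overlap, as in 10.4% of all genes tested. At an unadjusted p under 0.05 there were 2308 genes, 21.0%. Of the called genes 23 rose and 39 fell by at least 2-fold. Without replicates 1 and 3 at 168 h 230 genes were called, and 95 were in both sets (45.0% of the 211 and 41.3% of the 230), with all 211 on the same side of 0. The count was 31, 38 and 71 without replicate 1, 2 and 4 at 24 h, 118 and 127 without replicate 2 and 3 at 72 h, and 93, 493 and 402 without replicate 1, 2 and 4 at 168 h. Without replicate 2 at 168 h more genes rose than fell, 272 against 221. With library totals alone as the scaling, the median of all genes moved to -0.07 and 53 genes rose and 197 fell. The genes that rose had transcripts with a median GC content of 55.6% and those that fell 47.0%, against 49.5% for all genes tested. Deviations followed GC content in that direction in replicates 3 and 1 at 168 h (rho 0.656 and 0.31) and in the opposite one in replicates 1 and 2 at 24 h (rho -0.273 and -0.411), and the part of these libraries in the medians was not tested.

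**Figure D3:**
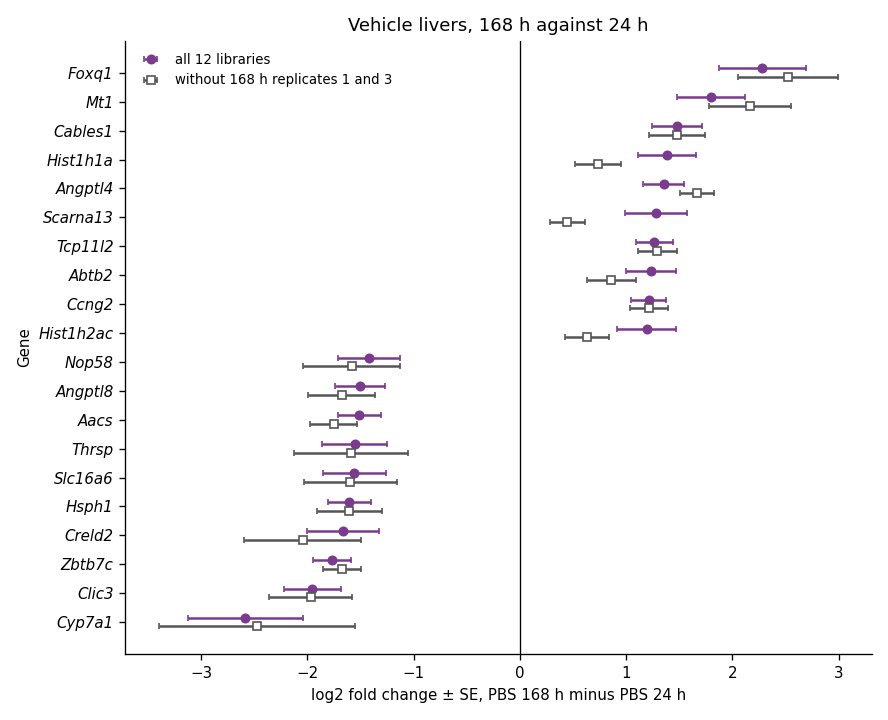
Log2 fold changes ± SE from PBS 24 h to PBS 168 h of the 10 highest and 10 lowest called genes with at least 10 CPM in a group, with all 12 libraries (filled) and without replicates 1 and 3 at 168 h (open). The direction is the same in both for the 20 genes, and Hist1h1a, Scarna13 and Hist1h2ac are nearer 0 without these libraries.

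Of the gene lists, that of ER chaperones and stress had the most called members. Of its 18 genes, all tested, 5 fell (Hspa5, Creld2, Manf, Dnajb9 and Hsp90b1) and 1 rose (Chac1), against 1.22% and 0.702% of all genes, and 15 of the 18 had a negative log2 change, with a median of -0.46 against 0.01. The counts were 5 and 1 also without replicates 1 and 3 at 168 h, and 7 and 1 without replicate 4 at 72 h. In the former fit Creld2 and Hsp90b1 were no longer called, so its 5 included other members of the list. Hspa5 (chr2:34771970-34777547), the main chaperone of the ER, had 2140.0, 2045, 1744 and 2187 CPM at 24 h, 1166, 1074, 1311 and 2152 CPM at 72 h, and 1089, 778, 846 and 736 CPM at 168 h. The 4 libraries at 168 h lay below all at 24 h, and the difference was -1.23 ± 0.19 (SE, adjusted p = 0.00407).

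Creld2, an ER protein that stress induces, had 134, 177, 146 and 154 CPM at 24 h, 62.9, 56.7, 87.1 and 203 CPM at 72 h, and 52.4, 37.0, 66.3 and 36.8 CPM at 168 h, at -1.66 ± 0.34 (SE, adjusted p = 0.0289). Manf, a secreted ER stress factor, fell from a mean of 491 ± 53.4 (SD) to 239 ± 67.9 CPM (-1.04 ± 0.22 SE, adjusted p = 0.0289) and Dnajb9, a co-chaperone of Hspa5, from 322 ± 68.4 to 155 ± 54.8 CPM (-1.06 ± 0.23 SE, adjusted p = 0.0343). Hsp90b1, the ER form of Hsp90, changed least of the 5, at -0.70 ± 0.15 (SE, adjusted p = 0.0295). Chac1, an enzyme that breaks down glutathione and that amino acid shortage induces, was named, like Dnajb9, after its values were seen. It had 1.00, 2.41, 2.38 and 1.30 CPM at 24 h, 4.99, 4.22, 3.81 and 2.14 CPM at 72 h, and 9.99, 7.34, 3.02 and 3.54 CPM at 168 h (1.76 ± 0.40 SE, adjusted p = 0.0353). Leaving out 1 library ended the call of Creld2 in 7 of 12 fits (adjusted p up to 0.0762, without 24 h replicate 2), of Hsp90b1 in 5 (up to 0.0847, without 24 h replicate 4) and of Manf in 3 (up to 0.0683, without 24 h replicate 4), and that of Hspa5 in none.

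Outside the ER, of the 5 tested genes of the heat shock and cold list only Hsph1, a partner of Hsp70, was called: it had 203, 211, 185 and 201 CPM at 24 h, 94.9, 88.6, 117 and 199.6 CPM at 72 h, and 59.7, 57.4, 71.5 and 74.3 CPM at 168 h. Libraries at 168 h were all below those at 24 h, and the difference was -1.61 ± 0.20 (SE, adjusted p = 0.00215), called in each of the 12 fits without 1 library. Hspa1b had 3.91 to 16.3 CPM at 24 h and 4.15 to 8.82 at 168 h, and Dnajb1 19.9 to 29.0 and 21.3 to 27.1 CPM. Nop58, a core protein of the particles that modify ribosomal RNA, fell from 80.9, 90.6, 56.5 and 97.9 CPM to 39.8, 24.9, 27.4 and 29.5 CPM (-1.42 ± 0.29 SE, adjusted p = 0.0289), a call lost in 5 of those 12 fits (adjusted p up to 0.0772, without 24 h replicate 2). That call was also lost without replicates 1 and 3 at 168 h together.

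**Figure D4:**
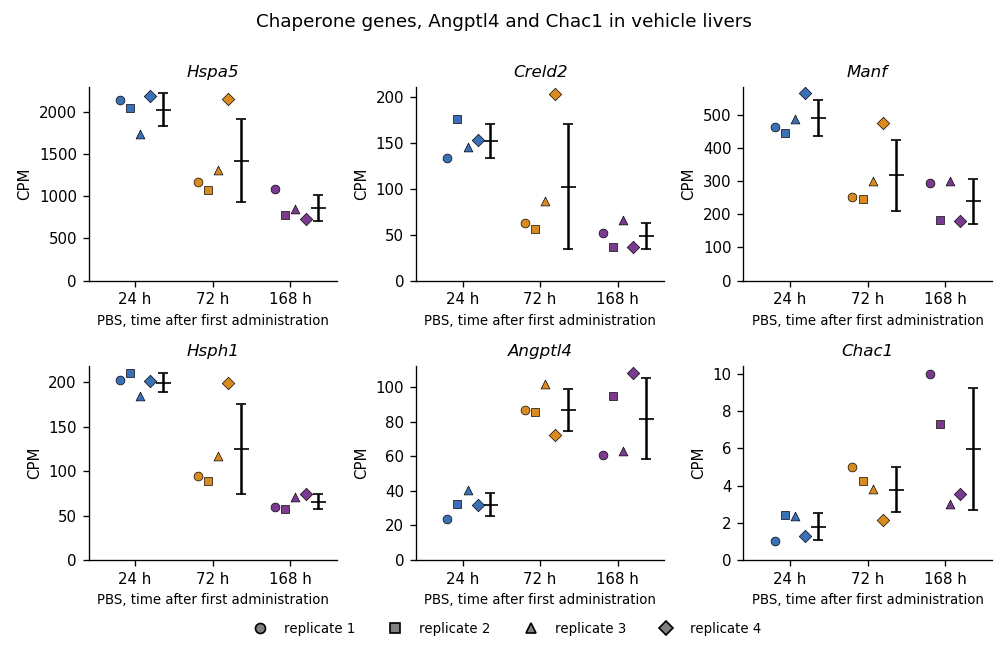
CPM from 0 of Hspa5, Creld2, Manf, Hsph1, Angptl4 and Chac1 in the 12 PBS libraries by time, with the mean and SD of 4 libraries beside the points. The 4 chaperone genes are lower in all 168 h libraries than in all 24 h libraries, and replicate 4 at 72 h lies at the 24 h level for them.

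Genes of lipid and bile acid metabolism were among those that fell most. Cyp7a1 (chr4:6265612-6275633) had the lowest log2 change of the called genes with at least 10 CPM in a group, -2.59 ± 0.54 (SE, adjusted p = 0.0344), with 43.5, 55.5, 18.9 and 38.5 CPM at 24 h and 6.11, 7.53, 5.79 and 6.49 at 168 h. The groups did not overlap, yet the call was lost in 7 of the 12 fits without 1 library (adjusted p up to 0.129, without 168 h replicate 3) and without replicates 1 and 3 at 168 h, at -2.47 (adjusted p = 0.288). The spread of this gene within the 72 h group enters these fits. Cyp7a1 was the only one of 13 tested bile acid genes called, and the median of the list was 0.04. Cyp8b1, of the same pathway, had 48.1 to 79.0 and 75.3 to 124 CPM.

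Thrsp, a lipogenic factor, had 179.8, 130.0, 121 and 158 CPM at 24 h, 71.5, 69.1, 98.1 and 232 CPM at 72 h, and 51.6, 48.4, 50.8 and 49.5 CPM at 168 h (-1.56 ± 0.31 SE, adjusted p = 0.0227). Elovl6, an elongase of fatty acids, had 22.1, 19.1, 23.9 and 21.3 CPM at 24 h and 9.64, 9.07, 8.18 and 12.6 at 168 h (-1.13 ± 0.17 SE, adjusted p = 0.00302). These were the 2 members called among 17 tested genes of fatty acid synthesis, whose median was -0.15. Of the 17 changes 8 were positive and 9 negative. Scd1 of this list went up without being called, at 0.61 ± 0.22 (SE, adjusted p = 0.138), from a mean of 2180 to 3337 CPM. Without replicates 1 and 3 at 168 h 4 members fell, among them Srebf1, the sterol and fat regulator, at -1.01 (adjusted p = 0.000679), and Fasn, fatty acid synthase, at -0.86 (adjusted p = 0.0132). With all libraries these 2 genes were at -0.36 ± 0.24 (SE, adjusted p = 0.406) and -0.29 ± 0.23 (SE, adjusted p = 0.491). Srebf1 had 382, 218, 569.6 and 228 CPM at 168 h, where the 2 libraries that stood apart were highest, against 362 to 497 CPM at 24 h. The call of Thrsp was lost in 6 of the 12 fits without 1 library (adjusted p up to 0.0744, without 24 h replicate 1). It was also lost without replicates 1 and 3 at 168 h, so Thrsp was not among the 4 members that fell there.

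Aacs, which activates ketone bodies for lipid synthesis, had 35.9, 40.8, 24.7 and 39.7 CPM at 24 h, 21.9, 16.8, 17.6 and 23.2 at 72 h and 11.8, 8.88, 16.9 and 12.2 at 168 h, the 24 h libraries above all others and the later times overlapping only in replicate 3 at 168 h. Its change to 168 h was -1.51 ± 0.20 (SE, adjusted p = 0.00215) and was called in every fit run. Angptl8, a feeding-induced secreted protein that takes part in blocking lipoprotein lipase, fell from 163, 179, 122 and 153 CPM to 72.9, 30.8, 47.8 and 66.4 CPM (-1.51 ± 0.23 SE, adjusted p = 0.00578). Slc16a6, a transporter of ketone bodies, fell from 28.6, 24.6, 21.7 and 40.4 to 8.82, 8.59, 11.2 and 10.5 CPM (-1.56 ± 0.30 SE, adjusted p = 0.0152), a call lost without replicate 1 at 24 h or replicate 1 at 168 h (adjusted p up to 0.0669, the former). That call was also lost without replicates 1 and 3 at 168 h together. Of the 19 tested genes of fatty acid oxidation and fasting 1 rose, Angptl4, 15 had a positive change and the median was 0.31. Without replicates 1 and 3 at 168 h 3 rose, with Ppara at 0.79 (adjusted p = 0.0383) and the lipid droplet gene Plin2 at 0.55 (adjusted p = 0.0244). Of 21 tested genes of sterol synthesis none was called, with a median of -0.14, and 2 fell without those libraries.

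Other genes that fell were not members of a list. Zbtb7c, a zinc finger factor, had 56.3, 67.1, 68.9 and 69.4 CPM at 24 h, 26.9, 44.0, 42.9 and 39.8 CPM at 72 h, and 13.2, 20.8, 22.4 and 20.2 CPM at 168 h. No group overlapped another. The change to 72 h was -0.77 ± 0.17 (SE, adjusted p = 0.135), and that to 168 h was -1.77 ± 0.18 (SE, adjusted p = 0.000111), called in every fit run. Clic3, of the chloride intracellular channel family, had 31.0, 24.5, 44.0 and 21.2 CPM at 24 h, 5.44, 13.9, 12.9 and 13.9 CPM at 72 h, and 7.99, 8.59, 7.80 and 6.73 CPM at 168 h (-1.95 ± 0.27 SE, adjusted p = 0.00218, called in every fit run). The 72 h and 168 h libraries of Clic3 overlapped, at 5.44 to 13.9 and 6.73 to 8.59 CPM.

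Among the genes that rose, Foxq1 (chr13:31556134-31560976), a forkhead factor, had the highest log2 change at that minimum of 10 CPM, 2.28 ± 0.41 (SE, adjusted p = 0.0141), with 4.69, 2.93, 4.04 and 2.02 CPM at 24 h and 8.93, 31.9, 18.6 and 7.79 at 168 h, a group that ranged 4-fold within itself. Mt1, a metallothionein that binds zinc and that glucocorticoids and metals induce, had 20.6, 18.8, 30.2 and 33.6 CPM at 24 h and 64.9, 79.4, 61.9 and 152 CPM at 168 h (1.80 ± 0.32 SE, adjusted p = 0.0141), replicate 4 being the highest of the later group. Zbtb16, another glucocorticoid target, rose from a group at 5.81 to 7.23 CPM to one at 10.3 to 17.6 CPM (1.03 ± 0.24 SE, adjusted p = 0.0368). These 2 were the only called genes of 13 tested glucocorticoid targets, whose median was -0.12, and Tat, the tyrosine aminotransferase of the same list, had 1649.6, 1158, 2842 and 1239.6 CPM at 168 h against 2054 to 2949 at 24 h. Tat fell where replicates 1 and 3 at 168 h were left out, at -1.02 (adjusted p = 0.00118), where it was at -0.50 ± 0.23 (SE, adjusted p = 0.225) with all libraries. The call of Zbtb16 was lost in 8 of the 12 fits without 1 library (adjusted p up to 0.126, without 24 h replicate 1), that of Mt1 in 2 (up to 0.0669, without 24 h replicate 1) and that of Foxq1 in 1 (adjusted p 0.054, without 24 h replicate 2).

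Cables1, which links cyclin-dependent kinases to Abl, had 3.43, 3.25, 5.18 and 4.98 CPM at 24 h, 12.0, 7.41, 12.1 and 6.79 CPM at 72 h, and 10.1, 11.9, 13.2 and 11.5 CPM at 168 h (1.48 ± 0.23 SE, adjusted p = 0.00452). Ccng2, the unconventional cyclin G2, had 12.8, 13.8, 16.1 and 10.3 CPM at 24 h, 22.9, 21.3, 19.3 and 15.8 CPM at 72 h, and 33.4, 33.8, 28.1 and 28.0 CPM at 168 h (1.21 ± 0.16 SE, adjusted p = 0.00215). Both were called in every fit run, and for both all 72 h and 168 h libraries exceeded the 24 h ones, except that replicate 4 at 72 h of Ccng2, at 15.8 CPM, fell just below the highest 24 h library at 16.1 CPM. Abtb2 rose from a group at 12.1 to 22.5 CPM to one at 27.2 to 58.7 CPM (1.23 ± 0.24 SE, adjusted p = 0.0141), and its change was 0.86 (adjusted p = 0.07) without the 2 libraries that stood apart. Leaving out 1 library ended that call in 2 of 12 fits (adjusted p up to 0.0605, without 24 h replicate 1).

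The called histone and small RNA genes were highest in the 2 libraries at 168 h that stood apart. Hist1h1a, a linker histone, had 4.77, 4.71, 5.18 and 4.63 CPM at 24 h and 21.2, 7.14, 13.5 and 8.97 CPM at 168 h. Hist1h2ac, a core histone, had 8.45, 9.32, 7.04 and 9.96 CPM at 24 h and 36.2, 10.9, 16.5 and 16.1 CPM at 168 h. Scarna13, a small RNA of Cajal bodies, had 115, 138, 91.7 and 147 CPM at 24 h and 453, 159, 406 and 175 CPM at 168 h, with replicates 1 and 3 at 168 h more than 2-fold above the other 2. The 3 changes were 1.39 ± 0.27 (SE, adjusted p = 0.0143), 1.19 ± 0.28 (SE, adjusted p = 0.0397) and 1.28 ± 0.29 (SE, adjusted p = 0.0397). Without those replicates they were 0.73 (adjusted p = 0.0954), 0.63 (adjusted p = 0.137) and 0.44 (adjusted p = 0.215). Leaving out 1 library ended the calls in 3, 8 and 9 of 12 fits, with adjusted p up to 0.0679, 0.133 and 0.128, each without replicate 1 at 24 h. Near-identical copies of histone genes could share reads.

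Immune and epithelial lists changed in single members. Irgm1, an interferon-induced GTPase, fell from 21.7, 24.8, 20.6 and 24.7 CPM to 11.9, 11.5, 9.82 and 14.4 CPM (-0.95 ± 0.16 SE, adjusted p = 0.00724) in every fit run. It was the 1 called member of 17 tested interferon response genes, of which 14 had a negative change, with a median of -0.30. Mx2 had 4.27 to 8.12 and 2.14 to 4.92 CPM and Cxcl10 6.18 to 7.28 and 3.54 to 4.91 CPM. Neutrophil and T cell markers stayed at the low sums given above, and their part in this difference was not tested. Pigr, the receptor that carries IgA into bile, fell from a group at 2681 to 2998 CPM to one at 1759.9 to 2108 CPM (-0.50 ± 0.12 SE, adjusted p = 0.0363), the 1 called gene of 13 periportal ones. Epcam, a marker of bile duct epithelium, fell from 3.26, 3.14, 2.28 and 2.25 to 1.76, 0.772, 1.01 and 0.590 CPM (-1.41 ± 0.36 SE, adjusted p = 0.0479), the 1 called of 7 tested cholangiocyte markers, whose median was -0.10 and whose sum was 178 to 214 CPM at 24 h and 184 to 251 CPM at 168 h. These calls of Pigr and Epcam were lost in 5 and 10 of the 12 fits without 1 library (adjusted p up to 0.0942 and 0.152, both without replicate 1 at 24 h). The call of Pigr was also lost without replicates 1 and 3 at 168 h together.

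No member was called at 168 h against 24 h in the lists of gluconeogenesis and amino acid breakdown (15 tested, median -0.09), xenobiotic metabolism (19, 0.15), immediate early genes (13, 0.24), acute phase proteins (20, -0.06), the cell cycle (14, 0.17) and pericentral genes (13, 0.07). In the fit without replicates 1 and 3 at 168 h Tat, a member of the first of these lists, fell, and no member of the others was called. The gluconeogenic Pck1 had 2277, 1974, 2261 and 3252 CPM at 24 h and 1049, 1012, 2596 and 727 at 168 h, where replicate 3 alone was within the 24 h range. G6pc, the last step of glucose release, had 718 to 1478 and 431 to 858 CPM. Scarb1, the target of the oligonucleotides used in the other groups of the study, had 262, 219, 270.2 and 259 CPM at 24 h, 293, 285, 273 and 284 CPM at 72 h, and 338, 232, 383 and 241 CPM at 168 h in these vehicle livers, with adjusted p = 0.561 for any difference.

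From 72 h to 168 h 8 genes were called, 0.0729% of those tested, and here too clock genes led. Dbp, Rgs16, Nr1d1, Nr1d2, Zbtb7c, Gnat1 and 4933431G14Rik, an unannotated transcript of low level, fell (0.0638% of the genes tested), and Elovl3 rose (0.00912%). In the 8 genes the groups did not overlap, as in 5.62% of all genes, and 1523 genes, 13.9%, had an unadjusted p under 0.05. This comparison shares its 72 h libraries with the one from 24 h to 72 h, so a gene high at 72 h alone can appear in both. Elovl3 (chr19:46131897-46135694), an elongase of very long fatty acids with a known daily rhythm in mouse liver, had 1603, 1441, 1346 and 1507 CPM at 24 h, 985, 1100.3, 781 and 873 CPM at 72 h, and 1479, 1401, 2001 and 1395 CPM at 168 h. Its 72 h libraries were the 4 lowest of the 12, and the change to 168 h was 0.75 ± 0.14 (SE, adjusted p = 0.0469), lost in 11 of the 12 fits without 1 library (adjusted p up to 0.315, without 72 h replicate 3). Gnat1, known as the transducin of rod photoreceptors, had 21.4 to 32.6, 31.0 to 40.9 and 14.6 to 21.6 CPM at the 3 times (-0.94 ± 0.16 SE, adjusted p = 0.0376), and its call was lost in 8 of these fits (up to 0.218, without 72 h replicate 3). Zbtb7c changed by -1.01 ± 0.18 (SE, adjusted p = 0.0405), a call lost in 10 (up to 0.227, without 72 h replicate 3).

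The number of genes called from 72 h to 168 h was smaller with most single libraries left out: 4 without replicate 1, 2 or 4 at 24 h and 5 without replicate 3, 4 without replicate 2 or 4 at 72 h and 2 without replicate 3, and 3, 4 and 5 without replicates 1, 2 and 3 at 168 h. Without replicates 1 and 3 at 168 h together it was 1. Bhlhe40, a clock repressor, had 60.0 to 139.8 CPM at 72 h and 28.9 to 50.7 at 168 h (adjusted p = 0.139), and Cdkn1a, the cell cycle inhibitor p21, 35.8, 18.1, 21.1 and 18.4 CPM at 24 h, 8.16, 13.5, 10.2 and 9.96 at 72 h and 37.6, 24.8, 50.1 and 17.9 at 168 h. Cdkn1a was called in the test of any difference (adjusted p = 0.0375). That test called 99 genes, 0.903%, and the count was 21 without replicate 1 or 2 at 24 h, 62 and 45 without replicates 3 and 4, 58, 39 and 158 without replicates 2, 3 and 4 at 72 h, and 53 without replicate 1 at 168 h.

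Some genes differed between replicates of a time more than between times. Of these 7126 genes averaging 10 CPM or more 207 had a pooled SD over 0.5 on the log2 scale and 7 over 1. The most variable, Atp6v0d1, a subunit of the proton pump of lysosomes, had 28.0, 0, 0 and 0 CPM at 24 h, 30.0, 0.103, 28.4 and 28.9 CPM at 72 h, and 0.118, 54.3, 9.06 and 58.7 CPM at 168 h, so that replicates of every time were split between almost no counts and 9.06 CPM or more. Alas1 (chr9:106233455-106248654) had an SD of 1.18 and 249, 237, 134 and 242 CPM at 24 h, 29.6, 34.2, 30.8 and 428 CPM at 72 h, and 47.7, 26.8, 65.1 and 22.0 CPM at 168 h. The 24 h libraries and replicate 4 at 72 h were high, and the other 7 libraries low, and no time difference was called (any difference, adjusted p = 0.361). Bcl6, a repressor that growth hormone controls in liver, had 94.6, 109, 132 and 144 CPM at 24 h, 177, 209.5, 182 and 52.9 CPM at 72 h, and 32.4, 124, 95.8 and 41.8 CPM at 168 h, with replicate 4 at 72 h below all of the 24 h libraries. Cyp7a1 (SD 0.76) and the serpin pseudogene Serpina4-ps1 (SD 0.99) were also among the 20 most variable. Serpina4-ps1 had 479, 375, 476 and 125 CPM at 24 h, 139.7, 178, 164 and 593 CPM at 72 h, and 111, 243, 50.7 and 256 CPM at 168 h.

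A second set of variable genes was low in the libraries that stood apart. The nuclear RNA Neat1 (chr19:5824708-5845478), the scaffold of paraspeckles, had 276, 335, 300.4 and 296 CPM at 24 h, 573, 631, 507 and 261 CPM at 72 h, and 39.0, 646, 183 and 684 CPM at 168 h, an SD of 1.16 that was 0.38 without replicates 1 and 3 at 168 h. The splicing factor Prpf39 had 6.88 CPM in replicate 4 at 24 h and 2.64 in replicate 3 at 168 h, against 12.6 to 28.2 in the other 10. Herc4 and Akap9 were lowest in replicate 3 at 168 h, at 10.8 and 1.26 CPM, and Hnrnpm, Pkdrej, Mug-ps1 and Lgals4 in replicate 1 at 168 h. Of the 20 most variable genes 7 had their lowest value in replicate 1 and 6 in replicate 3 at 168 h, and 11 were still among the 20 most variable without these 2 libraries.

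A further set was high in 1 or a few libraries. Gadd45g, a stress gene that growth arrest and DNA damage induce, had 9.29, 94.3, 90.9 and 8.62 CPM at 168 h and 7.95 to 13.9 and 6.69 to 10.4 CPM at the earlier times, so that replicates 2 and 3 at 168 h were high, the latter being the library that stood apart most. Cyp26a1 and Cyp26b1, which break down retinoic acid, were both highest in replicate 3 at 72 h, at 176 and 88.4 CPM, against 16.6 to 100.2 and 4.71 to 33.5 CPM in the other 11. Egr1, an immediate early gene, had 6.86, 6.60, 8.28 and 1.90 CPM at 24 h, 24.7, 6.07, 15.1 and 3.82 CPM at 72 h, and 7.52, 26.2, 19.1 and 14.2 CPM at 168 h. Socs2, a target of growth hormone signalling, was at 7.92 and 4.15 CPM in the same 2 libraries at 168 h that were high in Gadd45g, and at most 1.77 CPM in the other 10. That likeness was noticed after the values were seen.

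**Figure D5:**
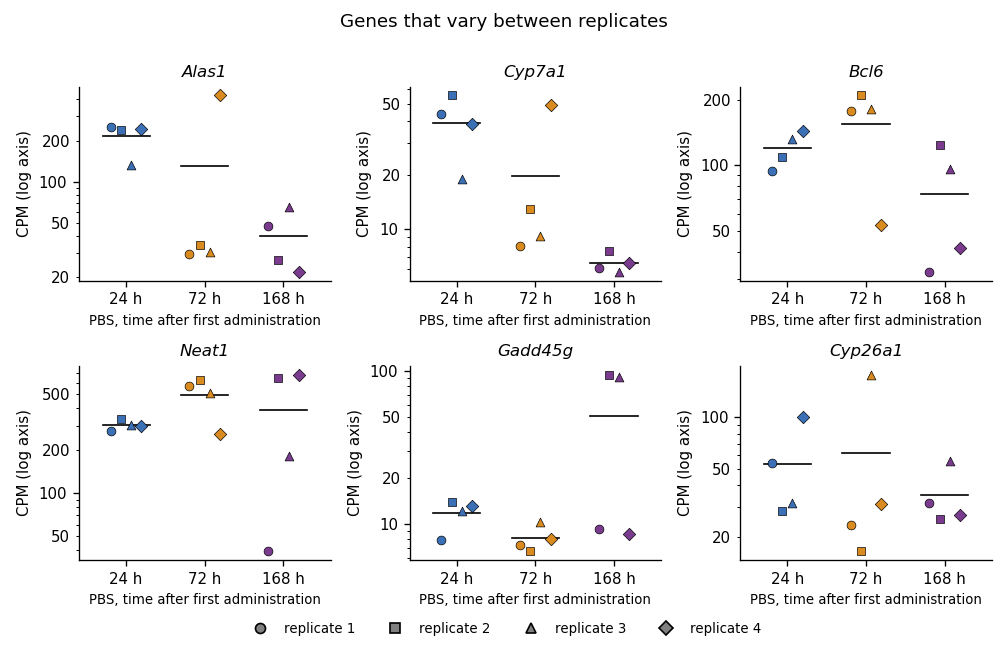
CPM on a log axis of 6 genes that vary between replicates, in the 12 PBS libraries by time, 1 point per library with the replicate as its shape and the group mean as a line. Replicate 4 at 72 h is high for Alas1 and Cyp7a1 and low for Bcl6, replicate 1 at 168 h is low for Neat1, and replicates 2 and 3 at 168 h are high for Gadd45g.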

How the data were processed

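Liver RNA of 12 PBS libraries (4 per time) was compared. The authors homogenized tissue with beads in TriPure and made libraries with the Ion AmpliSeq Transcriptome Mouse kit, per the labels' protocols. The values are the raw counts per gene that the authors deposited, 1 column per library, matched to samples by library name. The aligner, counter, genome build and use of strand were not given in the sources used here, so reads of near-identical or overlapping genes may be shared. PCR counts carry no molecular identifiers, so precision beyond counting error is not known. The labels' times are 24 h, 72 h and 168 h.

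Computed here from the deposited counts were TMM factors, CPM and log2(CPM + 1), and the robust quasi-likelihood test of edgeR 4.0.16 (R 4.3.3, limma 3.58.1) over the 12 libraries with the filterByExpr filter, the Benjamini-Hochberg adjustment over the 10969 genes tested and a threshold of 0.05. The SE was taken as the absolute change over the root of its F statistic. No pair of replicates agreed within sampling noise (chi-square over degrees of freedom 6.71 to 46.97 over 18 pairs). The test was checked on simulated counts drawn independently for each gene and library. They held no deviations that follow GC content or transcript length, so that check does not cover the libraries that stood apart. Alternatives were library totals, DESeq2 1.42.0, no filter, all 48 libraries, 8 libraries, a replicate block and each library left out.

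Members and gene lists were chosen with earlier results of these data known. Named genes were up to 10 highest and 10 lowest called genes per comparison with at least 10 CPM in a group and groups that did not overlap, up to 4 members of each list with a call, the 20 genes with most reads, the 20 most variable (mean of at least 10 CPM), the 10 steadiest (at least 100 CPM), Scarb1, and up to 3 clock promoters with a motif. Others are named as chosen after their values were seen or stand for a list without a call. Gene coordinates are GENCODE M21 (GRCm38) by symbol, with a symbol match for 10573 of 10969 genes. Some genes that the rule chose are not reported here. Positions of the amplified fragments were not used here.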

Additional observations from a re-analysis of the deposited data

Results flagged for a closer look

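In the groups of 4 libraries, 29 of 354 gene and group pairs (118 genes at 3 times) held 1 library whose gap to the nearest of the other 3 was a larger share of the whole range than Dixon's critical value for 4 samples. Chance alone flags about 1 group in 20 among genes picked without regard to spread. The 118 include genes picked for the largest or smallest spread between these libraries, so 29 of 354 cannot be judged against that rate.

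Replicate 4 at 72 h was the odd one in 5 of these genes. It had 427.73 CPM of Alas1, of heme synthesis, against 29.6 to 34.2 in the others of its time, and 592.7 CPM of the serpin pseudogene Serpina4-ps1 (others 139.69 to 177.59). Its Bcl6 level was 52.943 CPM (others 176.73 to 209.5), and that of the bile duct transcription factor Sox9 6.5132 CPM (others 11.326 to 12.045). Its Esd level, of an esterase, was 372.46 CPM (others 340.56 to 342.13).

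Replicates 1 and 2 at 72 h were flagged in 2 genes each. Replicate 1 was low in Clic3 (5.4379 CPM) and in the splicing factor Prpf39 (18.58 CPM). Replicate 2 was low in Atp6v0d1 (0.10295 CPM, others 28.37 to 30.022) and high in Etfa (1109.4 CPM).

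At 24 h, replicate 4 had 110 genes at least 2-fold from the median of the other 11 libraries, where the others of its time had 10 to 24, the 1 flag among 15 groups of library measures. It was low in Prpf39 (6.8775 CPM) and the ubiquitin ligase Herc4 (15.415 CPM) and high in Pigr (2998.3 CPM). Replicate 3 was high in the peroxidase Gpx1 (7467.8 CPM) and low in Apob (4788.9 CPM), the co-chaperone Dnajb1 (19.874 CPM) and Alas1 (133.53 CPM, others 237.3 to 249.47). Replicate 1 was high in Atp6v0d1 (28.026 CPM, others at 0) and low in Zbtb7c (56.303 CPM), the bile transporter Abcc3 (155.69 CPM) and Pkdrej (14.055 CPM).

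At 168 h, replicate 3 was low in the plasma protein Mug1 (3733.1 CPM, others 5910.0 to 6272.5) and the sterol carrier Scp2 (3286 CPM, others 5478.3 to 6011.7), and high in Abcc3 (406.53 CPM, others 238.11 to 246.17), Elovl3 (2000.6 CPM) and Hoga1 (327.62 CPM). Replicate 1 was high in Alb (47131 CPM, others 34194 to 35529), Car3 (14513 CPM) and Esd (383.61 CPM). Replicate 4 was low in Cry1 (4.4865 CPM, others 8.5795 to 8.8103).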

How the results depend on the processing

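The counts of called genes depended on the setting, while no named gene called in a comparison reversed in sign there. From 24 h to 72 h 8 genes were called, against 5 with library totals alone, 50 with DESeq2, 46 without the filter on low counts, 42 without replicates 1 and 3 at 168 h and 25 without replicate 4 at 24 h as well, and 3 to 54 with each library left out in turn. From 24 h to 168 h 211 were called, against 642 with DESeq2 (294 higher, 348 lower), 491 without the filter, 131 with all 48 libraries, 126 with the 8 libraries compared, and 31 to 493 with each library left out. Without replicate 2 at 168 h 55.2% of the calls were higher. With library totals the share of higher calls was 21.2% in place of 36.5%. From 72 h to 168 h 8 were called, against 5 with library totals, 64 with DESeq2, 54 without the filter, 4 with all 48 libraries, 4 with the 8 compared, 1 without replicates 1 and 3 at 168 h, 2 without replicate 4 at 24 h as well, and 2 to 9 with each left out. For any difference 99 were called, against 426 with DESeq2, 415 without the filter and 21 to 158 with each left out. The median spread of 0.213 lay between 0.193 and 0.219 with each left out. The settings without 2 or 3 libraries were chosen after seeing the data. The cause of these differences was not tested.

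With the replicate number as a block the 4 counts were 6, 194, 4 and 109, in the order above. Deviations of same-numbered libraries correlated at -0.387 to 0.218 over 12 pairs, 3 of them over 0.1, and 2 of 12 libraries correlated best with their own number. No pairing by number was seen in these values, which cannot show that none existed. The labels do not say what same-numbered libraries share. Of the called genes chosen by the rule, 2 of 8 from 24 h to 72 h, 8 of 30 from 24 h to 168 h and 1 of 7 from 72 h to 168 h were called in every setting run. Low depth limits genes near 1 CPM, about 8 to 11 counts a library.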

Other observations

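Atp6v0d1 (chr8:105524465-105566047, GRCm38), a subunit of the lysosomal proton pump, was either nearly without counts or well above the filter. With all 48 libraries scaled together, 5 of the 12 PBS libraries had at most 0.12559 CPM, 1 had a level between 2 and 20 CPM and 6 had 30.065 to 63.064 CPM. Of the 36 libraries of oligonucleotide-treated livers 15 had at most 1.2166 CPM, 1 was between 2 and 20 CPM and 20 had 26.398 to 79.516 CPM. These values come from 1 amplified fragment per gene.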
